A study of Mus musculus with 32 samples.

Results

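The 10 genes described here belong to the unfolded protein response of the endoplasmic reticulum and to the amino acid response, the stress pathways that meet at the transcription factor Atf4. They were listed by name as genes of these pathways, and were followed through every probe set annotated to one of them alone: 13 probe sets of 12422 and 10 genes of 8251 on the array. The list was made with earlier results of these data known. The counts of members called therefore describe this list and are no independent test of the pathways. The cells were C2C12, an immortal mouse line of skeletal myoblasts. They stop dividing and fuse into myotubes when growth medium is replaced by differentiation medium. Total RNA was measured on 32 Affymetrix arrays in separate arms. The TSA arm held 20 arrays of untreated control cells and of cells given TSA, which is trichostatin A and inhibits zinc-dependent histone deacetylases. Cells were taken at 0 h, while still in growth medium, and at 4, 12, 24 and 48 h of differentiation medium, with 2 arrays in each of 10 groups. The Sir2 arm held 12 arrays of C2C12 cells with the pHan vector and of cells with pHan carrying Sir2, an NAD-dependent deacetylase, after 12 and 36 h of differentiation, with 3 arrays in each of 4 groups. The dose of TSA, its time of addition or removal, and whether the pHan cells were pools or single clones were not given in the sources used here. Both arms used the same cell line, and every group but those at 0 h was in differentiation medium.

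Proteins that fail to fold in the endoplasmic reticulum activate the sensors PERK, IRE1 and ATF6, and a shortage of amino acids activates the kinase GCN2. PERK and GCN2 both phosphorylate the translation factor eIF2alpha, which slows protein synthesis in general and favours translation of Atf4 mRNA. The ATF4 protein then induces genes for amino acid synthesis, uptake and tRNA charging, together with Ddit3 (the protein CHOP), Atf3 and Trib3. ATF6 and the spliced form of Xbp1 act mainly on chaperones such as Hspa5 (the protein BiP), and signalling of this kind is known to accompany the onset of differentiation in cultured myoblasts. An array level reports neither the translation of Atf4 mRNA nor the splicing of Xbp1 mRNA.

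The promoters of 5 of the members are shown first, because they hold motifs of the 2 pathways. Of these genes Herpud1, Asns, Trib3 and, by 1 probe set, Atf3 rose in differentiating cells, and Hspa5 did not. Ddit3, Atf4 and Slc3a2 rose as well, and their windows held none of the motifs searched. The window of Slc3a2 (chr19:8713848-8714147, minus strand) belongs to a start inside the gene, which spans 8706882 to 8723369, so that the 5′ end of the gene was not searched. Whether a motif goes with a rise was not tested. The sequences are RefSeq's for build GRCm38.p6, written 5′ to 3′ on the strand of the gene and ending at the base before the annotated start, except for Trib3, where a stretch just after the start is shown. All 10 members matched an entry of the promoter table, in which each window holds the bases just before the start and a shorter stretch after it. Capitals mark the motif, read on either strand, with its free positions in lower case.
Hspa5: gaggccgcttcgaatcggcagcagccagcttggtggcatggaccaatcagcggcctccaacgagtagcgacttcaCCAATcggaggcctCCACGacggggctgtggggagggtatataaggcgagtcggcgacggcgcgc
Herpud1: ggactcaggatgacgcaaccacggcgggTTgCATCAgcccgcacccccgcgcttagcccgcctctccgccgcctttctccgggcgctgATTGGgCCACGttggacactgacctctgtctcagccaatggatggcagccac
Atf3: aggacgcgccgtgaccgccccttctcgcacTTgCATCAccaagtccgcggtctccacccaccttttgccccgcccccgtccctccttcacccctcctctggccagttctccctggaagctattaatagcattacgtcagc
Asns: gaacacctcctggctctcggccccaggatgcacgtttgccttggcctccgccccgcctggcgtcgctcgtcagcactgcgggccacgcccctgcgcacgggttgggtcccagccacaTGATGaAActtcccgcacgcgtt
Trib3: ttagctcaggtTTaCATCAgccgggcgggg
The windows lie at chr2:34771950-34772089 (plus strand), chr8:94386289-94386428 (plus strand), chr1:191183334-191183473 (minus strand), chr6:7693210-7693349 (minus strand) and chr2:152344028-152344057 (minus strand, in the transcribed 5′ part of the gene). In Hspa5 the capitals are the endoplasmic reticulum stress element ERSE, in which CCAAT and CCACG stand with free bases between them, from 65 to 47 bases before the start, which 0.119% of 32851 promoters hold. In Herpud1 the second run of capitals is the related element ERSE-II, in which ATTGG and CCACG stand with 1 free base between them, from 52 to 42 bases before the start, held by 0.0365% of promoters. Asns, Atf3, Herpud1 and Trib3, 4 of 10 members, hold TGATGNAA, a core of the element bound by ATF4 with C/EBP proteins, against 3.97% of all promoters; only that of Asns reads on the strand of the gene. The element TGACGTGG, bound by XBP1, was in 0 of the 10 members and in 0.676% of promoters. Both stress elements and TGACGTGG contain CCACG on one strand, so that a stretch could match more than 1 of them, which no stretch of a member did. A match describes letters in this window and not binding, and no match says only that these letters were not in it.

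Scale differed little among the arrays of an arm. Trimmed mean intensity lay between 792 and 795 in the TSA arm and between 149.2 and 149.3 in the Sir2 arm, and 21.0% to 24.2% of the values of a TSA-arm array were at or below 0. The tool behind the TSA-arm values was not given, and such values are read here as no measurable signal. Intensities are therefore not compared in size between the arms or between genes. Log2 changes were taken after adding a constant of 137.7 (TSA arm) or 8.82 (Sir2 arm), which makes the changes of dim genes smaller than the ratio of their intensities. A probe set passed the test at a Benjamini-Hochberg adjusted p under 0.05 in limma's moderated test over 7453 probe sets per arm. No label says that replicates were separate cultures, so that a p-value covers the spread among these arrays alone, which may be technical, and the number of arrays limits precision. Of 13 probe sets 12 were tested in each arm: the third of Atf3 was below 0 on every array of the TSA arm and too dim in the Sir2 arm. The summed intensity of 9 probe sets of 8 skeletal muscle markers was 4576 to 5692 in control cells at 0 h and 92000 to 101100 at 48 h. By contrast, 14 probe sets of 9 markers of leukocytes, endothelium, adipocytes, Schwann cells and simple epithelium summed to 1053 to 2369 over all groups of the TSA arm, with 4 to 7 of the 14 at or below 0 on both arrays of a group. In cell cultures measured in bulk, fewer cells of a kind and less RNA per cell cannot be told apart.

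Untreated cells raised the Atf4 branch at the latest times sampled. At 24 and 48 h Ddit3, Trib3, Atf4, Asns, Slc3a2 and Herpud1 stood above their level in growth medium, as did 1 probe set of Atf3, whereas Hspa5 was lower at 24 h and Xbp1 and Shmt2 did not pass the test. At 24 h against 0 h 6 of the 10 genes were higher and 1 lower (percent called over all probe sets tested, 12.9%: 6.13% higher and 6.74% lower). At 48 h 6 were higher and 0 lower (against 35.3%: 16.0% higher and 19.3% lower). The median log2 change of the members was 1.13 at 24 h and 1.23 at 48 h, against -0.01 and 0.01 over all probe sets tested. The comparisons of control cells at the different times share their 0 h arrays. The muscle markers moved with the members, 33270 to 33820 in sum at 24 h, with 6 of 8 genes higher and 0 lower than at 0 h. Their part in the result was not tested.

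Ddit3 encodes CHOP, a transcription factor of the C/EBP family that promotes cell death under lasting stress. Its intensity in control cells was 502 and 669 at 0 h, 534 and 584 at 4 h, 259 and 168 at 12 h, 4002 and 3705 at 24 h and 8105 and 8707 at 48 h. The arrays of 24 and 48 h stood far above all earlier ones with no overlap, and those of 12 h were the lowest. The rise against 0 h was 6.58-fold in mean intensity at 24 h (log2 change 2.47 ± 0.34, limma adjusted p = 5.63e-04) and 14.4-fold at 48 h (3.57 ± 0.34, adjusted p = 5.09e-06). Trib3, a pseudokinase induced by ATF4 and CHOP that binds the kinase AKT, was near or below 0 until 12 h and then rose without overlap. Its values were -53.6 and -55.9 at 0 h, -419 and 58.7 at 4 h, -12.5 and -42.2 at 12 h, 3261 and 2535 at 24 h and 5029 and 6724 at 48 h. With both 0 h arrays below 0 no fold is given and the p can be too small (adjusted p = 1.17e-05 at 24 h and 3.95e-07 at 48 h).

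Atf4, the transcription factor at the centre of the amino acid response, had intensities of 10018 and 8234 at 0 h, 7256 and 6972 at 4 h, 10753 and 12251 at 12 h, 19645 and 21664 at 24 h and 24826 and 22526 at 48 h. The 2 latest times again lay above all others, 2.26-fold (1.17 ± 0.16, adjusted p = 5.18e-04) and 2.59-fold (1.37 ± 0.16, adjusted p = 2.87e-05) over 0 h. For Atf3, a stress factor of the same basic leucine zipper class, the probe sets disagreed. The dimmer one, of Affymetrix's f type, which can also match related sequences, read 72.0 and 97.0 at 0 h, 232 and 198 at 4 h, 112 and 63.0 at 12 h, 505 and 699 at 24 h and 1676 and 1666 at 48 h. That is a step at 24 h (log2 change 1.72 ± 0.27, adjusted p = 0.00128) and a higher one at 48 h (3.03 ± 0.27, adjusted p = 3.16e-06). The brighter one, of the r type, by which Atf3 is counted in the TSA arm, read 373 and 329 at 0 h, 953 and 838 at 4 h, 611 and 554 at 24 h and 399 and 526 at 48 h, and passed at no time. Counted by its f-type probe set, a choice made after its values were seen, the members higher at 24 and 48 h would be 7 in place of 6.

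**Figure D1:**
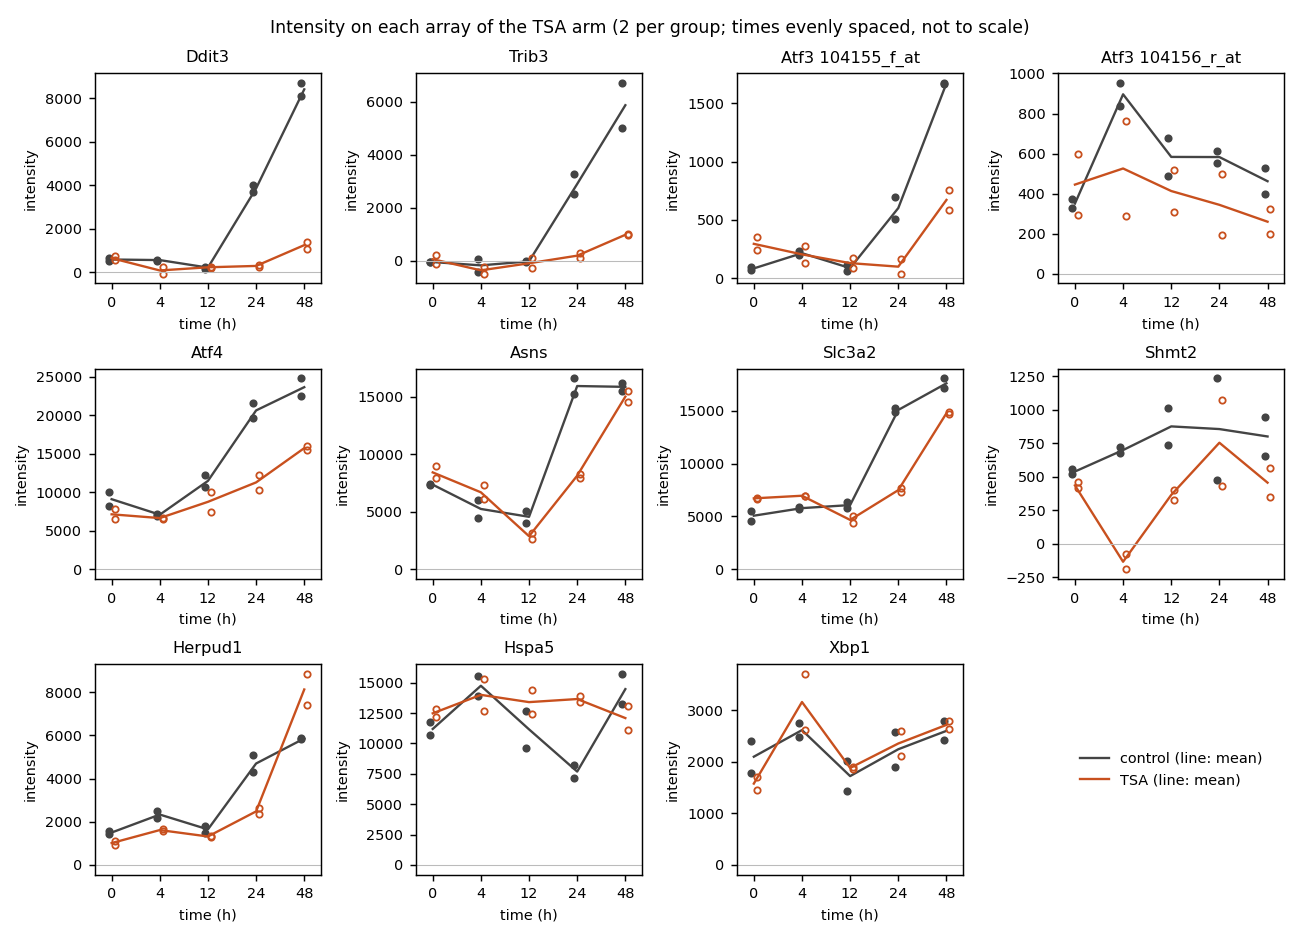
Intensity (linear scale, vertical axis) of each member probe set on every array of the TSA arm against time in differentiation medium (horizontal axis, hours, evenly spaced); filled points are control arrays, open points TSA arrays, lines the mean of 2. In Ddit3 the control arrays climb to 8105 and 8707 at 48 h while the TSA arrays reach 1408 and 1083; in Hspa5 the control arrays dip to 8223 and 7144 at 24 h.

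Of the genes of amino acid supply, Asns and Slc3a2 rose and Shmt2 did not pass. Asns, asparagine synthetase, read 7402 and 7334 at 0 h, 4495 and 6016 at 4 h, 5118 and 4029 at 12 h, 15266 and 16607 at 24 h and 16204 and 15527 at 48 h. It first fell and then rose: the fall at 12 h had a log2 change of -0.68 ± 0.16 (adjusted p = 0.0323; 1 of 10 members against 5.23% of probe sets called, 2.11% higher and 3.13% lower), and the rise was 2.16-fold at 24 h (adjusted p = 8.26e-04). The fall at 12 h was lost without control 0 h replicate 1 (adjusted p = 0.147), without control 0 h replicate 2 (0.157) and without control 12 h replicate 2 (0.253). The second probe set of Asns, also of the f type that can match related sequences, moved alike (1.34 ± 0.25 at 24 h, adjusted p = 0.00329). Slc3a2, the heavy chain shared by several amino acid exchangers, read 4588 and 5562 at 0 h, 5785 and 6372 at 12 h, 14902 and 15218 at 24 h and 17099 and 18045 at 48 h. Its arrays of 24 and 48 h did not overlap those of earlier times (1.55 ± 0.11, adjusted p = 2.11e-06, and 1.77 ± 0.11, adjusted p = 1.47e-07). Shmt2, the mitochondrial serine hydroxymethyltransferase, read 556 and 521 at 0 h and 477 and 1233 at 24 h, a spread between replicates wider than its shift.

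Among the genes of the endoplasmic reticulum itself, Herpud1, a membrane protein that helps degrade misfolded proteins, rose with the Atf4 branch and Hspa5 did not. Herpud1 read 1451 and 1555 at 0 h, 2185 and 2488 at 4 h, 1504 and 1793 at 12 h, 4303 and 5098 at 24 h and 5879 and 5843 at 48 h. It was the 1 member of 10 called at 4 h (0.59 ± 0.14, adjusted p = 0.0470, against 2.05% of probe sets called, 1.09% higher and 0.966% lower), a call lost without any one of its 4 arrays (adjusted p from 0.138 to 0.302). At 24 h it stood 3.13-fold (1.56 ± 0.14, adjusted p = 1.17e-05) and at 48 h 3.90-fold over 0 h. Hspa5, the chaperone BiP that holds unfolded proteins and restrains the sensors, read 10654 and 11728 at 0 h, 15563 and 13928 at 4 h, 12707 and 9606 at 12 h, 8223 and 7144 at 24 h and 13214 and 15724 at 48 h. The 24 h arrays were the lowest of the course and overlapped with none of the 0 h arrays (-0.54 ± 0.16, adjusted p = 0.0486). That fall was just past the threshold and was lost without control 0 h replicate 1 (0.120), control 0 h replicate 2 (0.231), control 24 h replicate 2 (0.0713) or control 24 h replicate 3 (0.268), each an adjusted p. Xbp1, whose spliced mRNA encodes the factor downstream of IRE1, stayed between 1430.0 and 2787 on all control arrays and passed at no time.

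With TSA the Atf4 branch was lower at 24 h and in part at 48 h. At 0, 4 and 12 h 2, 3 and 1 of the 10 members were called, against 17.9%, 11.4% and 4.08% of all probe sets. At 24 h 6 of the 10 genes were lower and 1 higher in TSA cells, where 5.94% of all probe sets were called (3.27% lower and 2.67% higher), and the median log2 change of the members was -0.87 against 0.00 over all probe sets. At 48 h 3 were lower and 1 higher, where 19.6% of probe sets were called (10.5% higher and 9.10% lower). The comparison asks how far an inhibitor of deacetylases alters the response of differentiating cells, and its control arrays at 24 and 48 h are those of the untreated course above.

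At 24 h TSA cells had Ddit3 intensities of 333 and 247 against 4002 and 3705 in control cells, and at 48 h 1408 and 1083 against 8105 and 8707. The groups did not overlap at either time, and the TSA arrays of 24 h lay below those of 0 h (552 and 743). The difference was 13.3-fold at 24 h (log2 change -3.23 ± 0.34, adjusted p = 1.26e-04) and 6.75-fold at 48 h (-2.64 ± 0.34, adjusted p = 1.99e-04). Trib3, the target of CHOP and ATF4 named above, read 272 and 101 in TSA cells at 24 h and 998 and 955 at 48 h. The TSA arrays of 24 h lay close to the range of this probe set at earlier times (-111 and 216 with TSA at 0 h), so no fold is given there (log2 change -3.27 ± 0.39, adjusted p = 2.68e-04). At 48 h Trib3 was 6.02-fold lower than in control cells (-2.42 ± 0.39, adjusted p = 9.72e-04), and the groups did not overlap at either time. Atf3 by its f-type probe set showed the same order, with 162 and 37.3 at 24 h and 583 and 759.9 at 48 h under TSA (-1.68 ± 0.27, adjusted p = 0.00281, and -1.17 ± 0.27, adjusted p = 0.00993). Without TSA 48 h replicate 1 the latter had an adjusted p of 0.0669. By its r-type probe set Atf3 was not called at either time (-0.65 ± 0.38, adjusted p = 0.415 at 24 h).

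Atf4 itself was lower with TSA at both late times. Under TSA it read 10352 and 12263 at 24 h and 15508 and 16009.8 at 48 h, below every control array of the same time. The log2 change was -0.86 ± 0.16 (adjusted p = 0.00655) and -0.58 ± 0.16 (adjusted p = 0.0232). The 24 h call was lost without control 24 h replicate 3 (adjusted p = 0.0626) or TSA 24 h replicate 2 (0.0634), and the 48 h call without control 48 h replicate 1 (0.105), TSA 48 h replicate 1 (0.0866) or TSA 48 h replicate 2 (0.0751).

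Asns and Slc3a2 were lower with TSA at 24 h and near control at 48 h. Asns read 8313 and 7982 at 24 h and 14513 and 15521 at 48 h under TSA, so that the groups were apart at 24 h (1.96-fold lower, -0.96 ± 0.16, adjusted p = 0.00363) and close at 48 h (-0.08 ± 0.16, adjusted p = 0.780). The second probe set agreed in direction (-1.26 ± 0.25, adjusted p = 0.00906), a call lost without control 24 h replicate 3 (0.0963) or TSA 24 h replicate 2 (0.0852). Slc3a2 read 7646 and 7333 and 14856 and 14640.1, 2.01-fold lower at 24 h (-0.99 ± 0.11, adjusted p = 1.92e-04) and not called at 48 h (-0.25 ± 0.11, adjusted p = 0.147). For both genes the effect of TSA differed between the 5 times by an F test within the same model (adjusted p = 0.00453 and 3.51e-04). Shmt2 did not pass at 24 h (434 and 1072 under TSA, adjusted p = 0.911), where its replicates in each group spread more than the groups. At 48 h it read 566 and 346 under TSA against 945 and 655, without overlap, and was not called either. It passed there only when limma's model held a term for the replicate number (adjusted p = 0.0383).

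Herpud1 was lower with TSA at 24 h and higher at 48 h, and Hspa5 was higher at 24 h and did not pass at 48 h. Herpud1 read 2341 and 2622 under TSA at 24 h, below control (1.89-fold, -0.88 ± 0.14, adjusted p = 0.00178), and 7406 and 8854 at 48 h, above control (1.39-fold, 0.46 ± 0.14, adjusted p = 0.0330). The 48 h call was lost without control 48 h replicate 1 (0.0892), control 48 h replicate 2 (0.0998) or TSA 48 h replicate 2 (0.210), each an adjusted p. Hspa5 read 13405 and 13898 under TSA at 24 h, where control cells dipped to 8223 and 7144. It was the 1 member higher with TSA at that time (1.78-fold, 0.82 ± 0.16, adjusted p = 0.00970), and its TSA values moved little over the course, between 11094 and 15326 on all 10 TSA arrays. The call was lost without control 24 h replicate 3 (adjusted p = 0.0897) or TSA 24 h replicate 3 (0.0666). At 48 h Hspa5 read 13080.1 and 11094 under TSA against 13214 and 15724 and did not pass (-0.26 ± 0.16, adjusted p = 0.304). Xbp1 was at 2111 and 2599.99 under TSA at 24 h, inside the control spread at that time for its lower array and just above it for the other (adjusted p = 0.923).

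The calls at 24 and 48 h rest on the spread shared over all 10 groups. Fitted on the 4 arrays of 1 time alone, 1 of the 6 lower genes, Ddit3, kept its call at 24 h and 0 of 3 at 48 h (adjusted p for the rest from 0.0986 to 0.197 at 24 h and from 0.0555 to 0.181 at 48 h, with every direction kept). Neither Hspa5 at 24 h (0.194) nor Herpud1 at 48 h (0.267) kept its call in that fit. The summed muscle markers also differed with TSA, 22190 to 24250 against 33270 to 33820 in control cells at 24 h and 112500 to 129500 against 92000 to 101100 at 48 h. Of 8 genes 3 were lower and 1 higher at 24 h, and 1 lower and 2 higher at 48 h. Their part in the result was not tested.

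**Figure D2:**
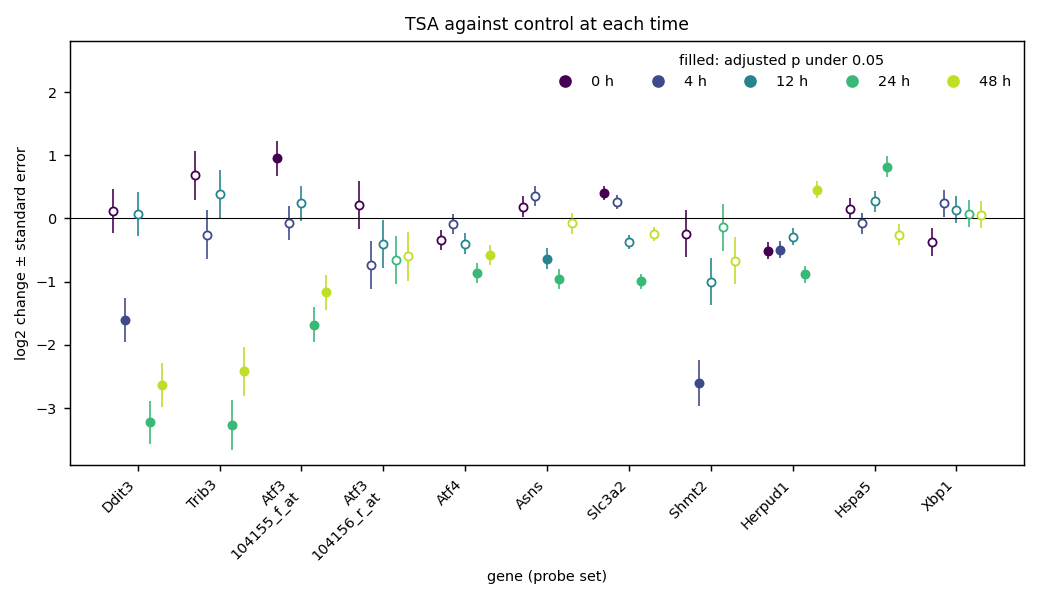
Log2 change of TSA against control (vertical axis, with standard error) for each member probe set (horizontal axis) at the 5 times, coloured by time; filled points have an adjusted p under 0.05. Ddit3 and Trib3 lie between -2.42 and -3.27 at 24 and 48 h, and Hspa5 lies above 0 at 24 h.

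At each early time 1 to 3 of the 10 members were called. The share of members at 4 h was 30% against 11.4% of all probe sets, beside 40% against 19.6% at 48 h. In growth medium 1 gene was higher and 1 lower with TSA, where 17.9% of all probe sets were called (7.90% higher and 10% lower). That is 20% of the members, near the share of all probe sets. Slc3a2 read 6754 and 6668 against 4588 and 5562 (0.40 ± 0.11, adjusted p = 0.0276) and Herpud1 942 and 1088 against 1451 and 1555 (-0.51 ± 0.14, adjusted p = 0.0199), in each case without overlap. Slc3a2 lost its call without control 0 h replicate 1 (0.25), TSA 0 h replicate 1 (0.124) or TSA 0 h replicate 2 (0.102). Herpud1 lost its call without control 0 h replicate 1 (0.0636), control 0 h replicate 2 (0.120) or TSA 0 h replicate 1 (0.153). Atf3 by its f-type probe set was higher (239 and 352 against 72.0 and 97.0, adjusted p = 0.0295), which was lost without any one of the 4 arrays (0.0526 to 0.193). At 4 h 3 genes were lower and 0 higher, against 11.4% of probe sets called (5.61% higher and 5.74% lower). Ddit3 read 240.5 and -76.9 against 534 and 584, with 1 TSA array below 0, so that no fold is given (-1.61 ± 0.34, adjusted p = 0.00864, and 0.0596 without control 4 h replicate 2). Shmt2 was listed below 0 on both TSA arrays (-190.5 and -75.8) against 718 and 679. A group with no spread after flooring at 0 can make the p too small (adjusted p = 6.30e-04). Herpud1 read 1577 and 1658 against 2185 and 2488 (-0.49 ± 0.14, adjusted p = 0.0350), a call lost without any one of the 4 arrays (0.0723 to 0.208). At 12 h 1 gene of 10 was lower, against 4.08% of probe sets called (2.56% higher and 1.52% lower). It was Asns, at 3167 and 2609 against 5118 and 4029 (-0.64 ± 0.16, adjusted p = 0.0479), which was lost without any one of the 4 arrays (0.0590 to 0.324).

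Over the whole course TSA-treated cells also raised members, from their own 0 h level. At 48 h against 0 h 6 of 10 were higher and 0 lower, where 26.4% of probe sets were called (12.1% higher and 14.2% lower). Herpud1 rose 8.01-fold (2.84 ± 0.14, adjusted p = 1.04e-08), Atf4 2.20-fold (adjusted p = 1.98e-04), Slc3a2 2.20-fold (adjusted p = 1.21e-05) and Asns 1.78-fold (adjusted p = 0.00223). Trib3 went from -111 and 216 to 998 and 955 (adjusted p = 6.55e-04). Xbp1 was also called (1446 and 1709.7 at 0 h and 2787 and 2646 at 48 h, 0.74 ± 0.21, adjusted p = 0.0228), but not without TSA 0 h replicate 1 (0.142), TSA 48 h replicate 1 (0.0915) or TSA 48 h replicate 2 (0.0679). Ddit3 had a log2 change of 0.82 ± 0.34 and was not called (adjusted p = 0.101), but passed with an added constant 2 times as large (0.0344). Fitted on only the 4 arrays compared, Trib3 (adjusted p = 0.0529) and Xbp1 (0.0506) lost their calls, which left 4 genes higher. Atf3 by its f-type probe set had 0.91 ± 0.27 (adjusted p = 0.0275), lost without TSA 0 h replicate 1 (0.181) or TSA 48 h replicate 2 (0.157). The effect of TSA differed between times for 7 of 10 members by the F test (22.2% of probe sets called), Ddit3 (adjusted p = 6.90e-04), Trib3 (6.34e-04) and Herpud1 (0.00283) among them, while Atf4 (0.138) and Xbp1 (0.516) did not pass.

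Beyond the members, 7 lists of genes of these pathways held 80 genes on the array, of which 70 were tested in each arm. These lists, too, were made with earlier results of these data known, and their counts are descriptive. Calls of list genes were not repeated with other processing or without single arrays. In control cells at 24 h against 0 h, 28 of the 70 were higher and 7 lower. With TSA at 24 h 8 were higher and 18 lower than control. Over all probe sets tested, 6.13% were higher and 6.74% lower in that control comparison, and 2.67% higher and 3.27% lower with TSA. At 48 h these shares were 16.0% and 19.3% in control cells and 10.5% and 9.10% with TSA. The counts of single lists at these times stand beside the same shares. The transfer RNA synthetases of the cytosol, which charge tRNA with amino acids, moved largely together: 11 of 12 were higher at 24 h and 0 lower in control cells (median 0.68), 10 of 12 higher at 48 h, and 5 of 12 lower with TSA at each of the 2 times. Wars, for tryptophan, changed by 0.95 ± 0.14 in control cells at 24 h and by -1.11 ± 0.14 with TSA (adjusted p = 8.22e-04 and 4.23e-04), and Lars, for leucine, by 0.84 ± 0.13 and -0.71 ± 0.13 (adjusted p = 0.00101 and 0.00556).

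Of 9 stress transcription factors and regulators tested, 6 were higher and 0 lower in control cells at 24 h, 7 higher and 0 lower at 48 h, and 5 lower and 0 higher with TSA at 24 h. Nupr1, a small stress-induced chromatin protein, read 5087 ± 608 at 24 h against 956 ± 26.5 at 0 h in control cells (2.25 ± 0.17, adjusted p = 2.11e-06) and 1941 ± 73.0 with TSA at 24 h (-1.33 ± 0.17, adjusted p = 3.60e-04). Atf5, a factor related to Atf4 and translated in the same way, changed by 1.86 ± 0.23 (adjusted p = 2.87e-04) and by -1.84 ± 0.23 with TSA (adjusted p = 4.23e-04). Cebpb, a partner of ATF4 on DNA, was lower with TSA at 24 h by -1.36 ± 0.14 (adjusted p = 8.72e-05). Of 7 sensors, eIF2alpha kinases and phosphatase subunits tested, 2 were higher in control cells at 24 h and 0 lower. Ppp1r15a (GADD34), the stress-induced subunit that brings the phosphatase to eIF2alpha and so ends the response, went from -26.5 ± 46.4 at 0 h to 828 ± 82.6 at 24 h and 2301 ± 88.7 at 48 h in control cells (mean ± SD, n = 2), and to 25.5 ± 10.3 with TSA at 24 h (adjusted p = 1.95e-06 against control). Atf6 itself, a sensor that is cut in the Golgi to become a transcription factor, changed by 1.93 ± 0.12 at 48 h (adjusted p = 9.23e-08).

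Enzymes of amino acid and one-carbon synthesis had 4 of 8 higher and 1 lower in control cells at 24 h, and 4 lower and 0 higher with TSA. Mthfd2, the mitochondrial folate dehydrogenase next to Shmt2 in the pathway, changed by 1.27 ± 0.14 (adjusted p = 9.43e-05) and read 3666 ± 239 with TSA against 7511 ± 1071 in control cells (adjusted p = 9.06e-04). Psat1, of serine synthesis, changed by 0.80 ± 0.10 (adjusted p = 3.50e-04) and -0.85 ± 0.10 (adjusted p = 3.52e-04). Of 4 amino acid transporters tested, 2 were higher in control cells and 2 lower with TSA at 24 h: Slc7a5, the light chain that pairs with Slc3a2 (1.34 ± 0.17 and -0.98 ± 0.17), and the neutral amino acid carrier Slc1a4 (0.64 ± 0.17 and -1.84 ± 0.17), with adjusted p from 4.79e-05 to 0.0273.

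Chaperones and oxidoreductases of the endoplasmic reticulum, the class to which Hspa5 belongs, were mostly higher with TSA where they were called. In control cells at 24 h 2 of 17 were higher and 3 lower (median -0.04), and with TSA at 24 h 6 were higher and 1 lower (median 0.53, against 0.00 over all probe sets). Manf, a secreted stress protein of this compartment, read 7543 ± 1404 with TSA against 3294 ± 392 (1.15 ± 0.14, adjusted p = 2.35e-04), and Creld2, a co-chaperone, 1863 ± 54.2 against 982 ± 5.91 (0.84 ± 0.16, adjusted p = 0.00663). The 1 lower gene was Ero1a, an oxidase of disulfide bonds that CHOP is known to induce: it read 5258 ± 69.9 in control cells at 24 h against 1215 ± 140.4 at 0 h, and its log2 change with TSA was -2.05 ± 0.31 (adjusted p = 0.00115 and 0.00167). Genes of endoplasmic reticulum-associated degradation and translocation had 1 of 13 higher and 3 lower in control cells, and 2 higher and 0 lower with TSA, among them the channel subunit Sec61a1 (0.72 ± 0.14, adjusted p = 0.00730). The 1 of 13 higher in control cells is near the 6.13% of all probe sets. These lists were counted in comparisons that share the control arrays of 24 h, and neither direction is independent of the other.

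**Figure D3:**
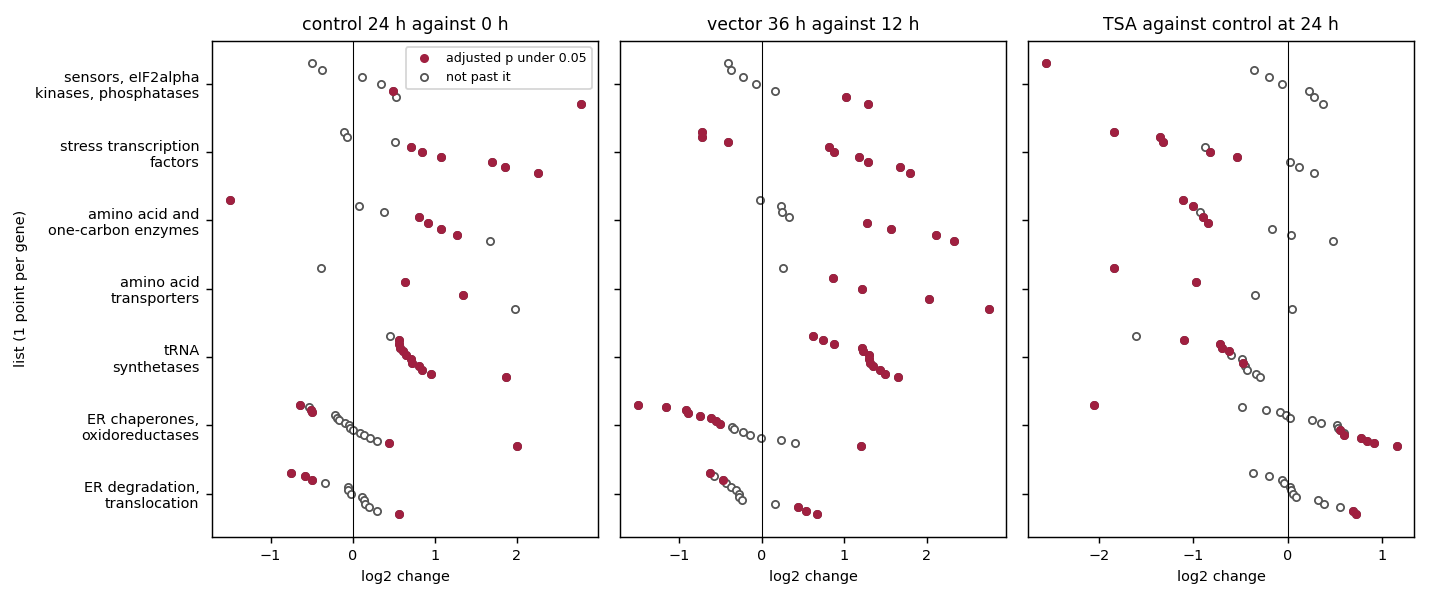
Log2 change (horizontal axis) of each gene of the 7 pathway lists (rows, 1 point per gene, members not included) in 3 comparisons; filled points have an adjusted p under 0.05. The tRNA synthetases lie to the right of 0 in control and vector cells and mostly to the left with TSA, and the chaperones show 6 genes higher and Ero1a lower with TSA.

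The separate arm of vector cells held a second time course with 3 arrays a group and other samples. Between 12 and 36 h in vector cells 7 of 10 members were higher and 0 lower (32.1% of probe sets called, 12.4% higher and 19.7% lower), with a median log2 change of 1.88 against -0.02 over all probe sets. Sir2 cells had 7 higher and 0 lower as well (28.5% called, 11.7% higher and 16.9% lower). The genes higher in both were Ddit3, Trib3, Atf3, Atf4, Asns, Slc3a2 and Herpud1, and in each comparison all 7 kept their call without any one of the arrays. The muscle markers summed to 6279 to 6751 in vector cells at 12 h and 23690 to 24210 at 36 h, and their part was not tested.

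Trib3 read 24.2, 18.2 and 7.78 at 12 h and 434, 600.1 and 416 at 36 h in vector cells, 28.9-fold (4.31 ± 0.25, adjusted p = 1.46e-07), and 58.8, 37.5 and 39.5 and 618, 766 and 564 in Sir2 cells. Its vector mean of 16.7 at 12 h lay below 31.1, the mean over the arm required for testing, so that the size of this fold is uncertain. Ddit3 read 84.1, 105 and 58.2 at 12 h and 371, 358 and 412 at 36 h, 4.62-fold (2.12 ± 0.21, adjusted p = 1.23e-05). No 36 h array of either gene overlapped with a 12 h array of the same cells. Asns read 564, 516 and 503 and 3103, 3130.4 and 2923, 5.78-fold (adjusted p = 1.35e-08), and Slc3a2 444, 523 and 484 and 2194, 2039.6 and 2034, 4.32-fold (adjusted p = 2.41e-08). Herpud1 rose 3.95-fold (adjusted p = 1.72e-07) and Atf4 2.60-fold (adjusted p = 3.98e-06). In this arm Atf3 is counted by its f-type probe set, which rose 3.92-fold (adjusted p = 3.33e-07), while the r-type probe set did not pass (0.18 ± 0.23, adjusted p = 0.576).

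Hspa5, Xbp1 and Shmt2 did not pass between 12 and 36 h. Hspa5 read 1077, 1466 and 1172 at 12 h and 921, 1135 and 1119 at 36 h in vector cells (-0.22 ± 0.14, adjusted p = 0.260), with overlapping arrays. Xbp1 read 406, 435 and 354 and 480.1, 472 and 468 (0.25 ± 0.11, adjusted p = 0.107). Of the pathway lists, 12 of 12 tRNA synthetases were higher at 36 h in vector and in Sir2 cells, 4 of 5 transporters and 4 of 8 enzymes were higher and 0 lower in each. Among 16 chaperones 1 was higher and 8 lower in vector cells and 1 higher and 5 lower in Sir2 cells. Slc7a5 changed by 2.75 ± 0.11 in vector cells (adjusted p = 1.35e-08), Psph, the last enzyme of serine synthesis, by 2.33 ± 0.12 (adjusted p = 8.19e-08), and Pdia4, a disulfide isomerase, by -1.15 ± 0.16 (adjusted p = 1.86e-04). The higher chaperone gene was again Ero1a (1.20 ± 0.13, adjusted p = 2.58e-05). Stress transcription factors had 6 of 9 higher and 3 lower in vector cells and 8 higher and 0 lower in Sir2 cells, sensors 2 of 7 higher and 0 lower and 2 higher and 1 lower, and genes of degradation and translocation 3 of 13 higher and 2 lower and 3 higher and 4 lower. Against 32.1% of all probe sets called in vector cells and 28.5% in Sir2 cells, the counts of sensors and of degradation genes in vector cells are near the background.

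**Figure D4:**
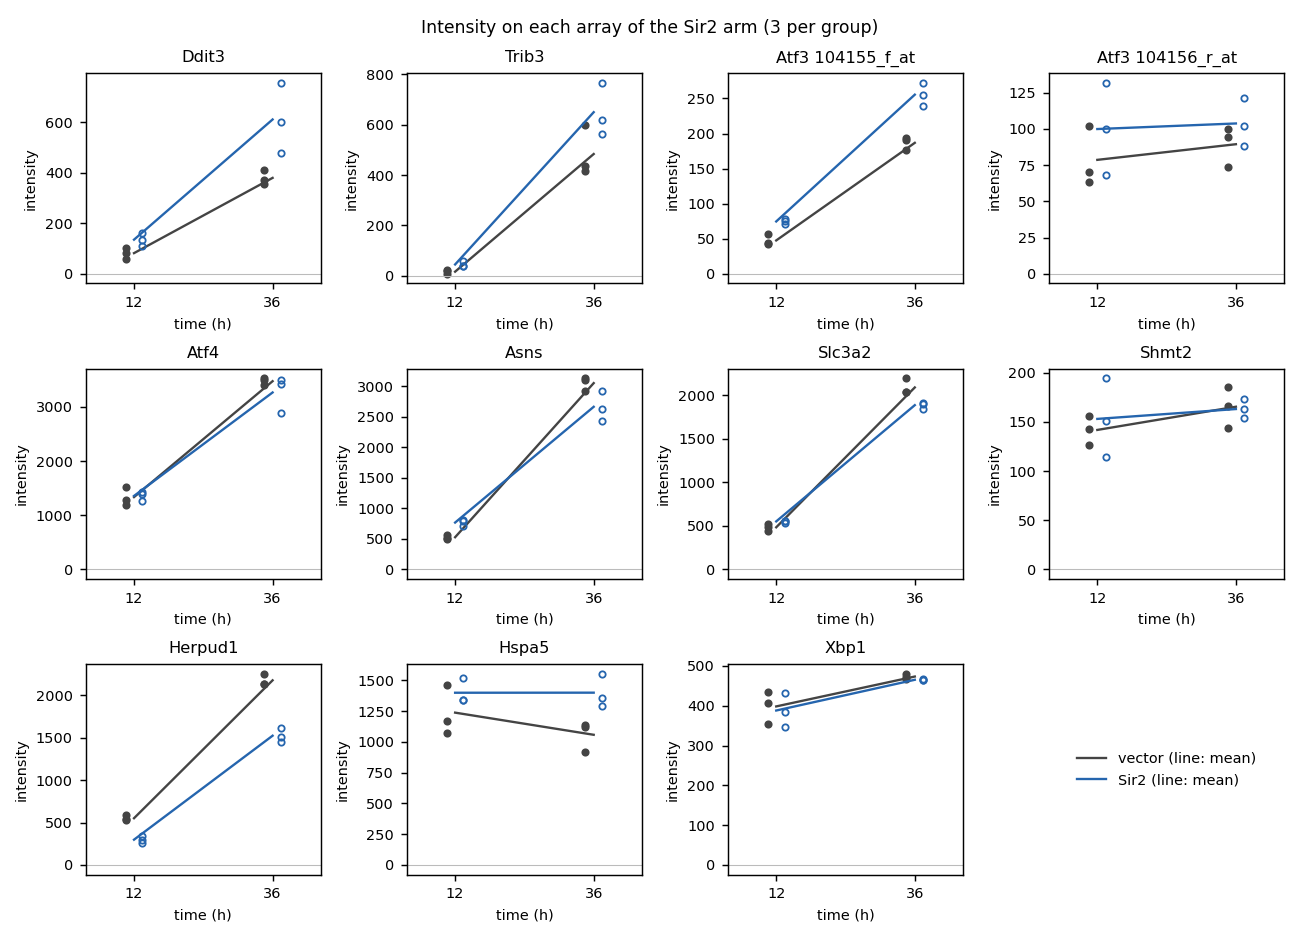
Intensity (linear scale, vertical axis) of each member probe set on every array of the Sir2 arm at 12 and 36 h (horizontal axis, hours); filled points are vector arrays, open points Sir2 arrays, lines the mean of 3. Trib3, Ddit3, Asns and Slc3a2 rise between the times in both kinds of cell, and Herpud1 lies lower with Sir2 at both.

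Among the members, Herpud1 was called lower with Sir2 at both times, and Atf3, by its f-type probe set, higher. At 12 h 3 of 10 were higher and 1 lower than in vector cells (5.55% of probe sets called, 2.78% higher and 2.78% lower), and at 36 h 1 was higher and 1 lower (9.26% called, 6.04% higher and 3.22% lower). Herpud1 read 289, 260.4 and 345 with Sir2 against 588, 539 and 525 at 12 h and 1447, 1609 and 1511 against 2137, 2251 and 2136 at 36 h. The groups did not overlap at either time: 1.85-fold lower (-0.87 ± 0.12, adjusted p = 0.00109) and 1.43-fold lower (-0.51 ± 0.12, adjusted p = 0.0160). The 36 h call was lost without Sir2 36 h replicate 1 (adjusted p = 0.0619) or vector 36 h replicate 2 (0.0570).

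The 3 genes higher with Sir2 at 12 h were Trib3, Asns and Atf3. Trib3 read 58.8, 37.5 and 39.5 against 24.2, 18.2 and 7.78 (2.71-fold, 1.12 ± 0.25, adjusted p = 0.0211), and lost its call without Sir2 12 h replicate 1 (0.0855) or vector 12 h replicate 3 (0.0696). With such dim vector arrays the size of this fold is uncertain as well. Asns read 813, 786 and 705 against 564, 516 and 503 (1.45-fold, 0.53 ± 0.11, adjusted p = 0.0128), which was lost without Sir2 12 h replicate 1 (0.0634), Sir2 12 h replicate 2 (0.0531) or vector 12 h replicate 3 (0.0571). Atf3 read 75.0, 71.0 and 78.3 against 56.2, 42.6 and 44.3 (1.57-fold, adjusted p = 0.0116; 0.0557 without vector 12 h replicate 3). The arrays of each of these genes were apart between the groups. Fitted on the arrays of 12 h alone, 0 of the 3 passed (adjusted p from 0.0604 to 0.0759).

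At 36 h the higher gene was Atf3 (239, 272 and 255 against 190.3, 194 and 176, 1.37-fold, adjusted p = 0.0336), a call lost without any one of the 6 arrays (0.0550 to 0.118). Ddit3 stood without overlap above vector cells at both times (109, 162 and 136 at 12 h and 600.4, 478 and 757 at 36 h) and did not pass (0.68 ± 0.21, adjusted p = 0.0905, and 0.65 ± 0.21, adjusted p = 0.0802). Hspa5 was at 1288, 1554 and 1359.8 at 36 h with Sir2 (0.40 ± 0.14, adjusted p = 0.100). Asns alone of the 10 had an effect of Sir2 that differed between 12 and 36 h (1.76% of probe sets called, 1.27% higher and 0.483% lower). Its arrays of 36 h read 2923, 2434 and 2634 with Sir2 and 3103, 3130.4 and 2923 with vector, and the difference of the effects was -0.73 ± 0.15 (adjusted p = 0.0342). That call was lost without 10 of the 12 arrays taken one at a time (0.0544 to 0.0882). The pathway genes were called about as often as all probe sets, 5.71% against 5.55% at 12 h and 8.57% against 9.26% at 36 h. Of them 3 of 70 were higher and 1 lower with Sir2 at 12 h, Psph (0.58 ± 0.12), Slc7a5 (0.48 ± 0.11) and the prolyl isomerase Fkbp11 (0.67 ± 0.16) against Ddit4, an inhibitor of the growth kinase mTORC1 (-0.78 ± 0.13, adjusted p = 0.00363), and 6 were higher and 0 lower at 36 h. The summed muscle markers were lower with Sir2, 3195 to 3827 against 6279 to 6751 at 12 h and 15930 to 19440 against 23690 to 24210 at 36 h. Of 8 genes 6 were lower and 0 higher at 12 h, and 3 lower and 1 higher at 36 h. Their part in these differences was not tested.

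Over the log2 means of the 10 groups of the TSA arm, 6 members (Ddit3, Trib3, Asns, Atf4, Slc3a2 and Herpud1) varied together, with Pearson's r from 0.726 to 0.946 between any pair of them. It was 0.934 between Ddit3 and Trib3, 0.946 between Trib3 and Slc3a2, 0.919 between Trib3 and Atf4, and 0.906 between Asns and Slc3a2, while Hspa5 had r = -0.305 with Ddit3 and -0.425 with Atf4. The other members had lower r with these and with each other: Atf3 by its r-type probe set from -0.266 to 0.156, Xbp1 from -0.412 to 0.56 and Shmt2 from -0.412 to 0.528. These describe 10 points that share arrays, time and scaling, and carry no test. Among all named probe sets tested, the 4 genes closest to Ddit3 were Hspa9 (r = 0.97), a mitochondrial chaperone, Ik (0.97), Cebpb (0.96) and Stbd1 (0.96), a glycogen-binding protein. Stbd1 stood at a mean of 7592 in control and 2162 in TSA cells at 48 h, against 491 and 533 at 0 h. Closest to Hspa5 were Plac1 (0.94), Mcl1 (0.92), which protects cells from apoptosis, Sar1a (0.90), a GTPase of export from the endoplasmic reticulum, and Ptgfrn (0.88). Mcl1, like Hspa5, had its lowest group mean in control cells at 24 h, 936 against 1501 at 0 h and 1525 with TSA at 24 h.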

How the data were processed

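The members and the gene lists were chosen with earlier results of these data known. The deposited values were intensities on a linear scale, 1 per probe set and array; per the submitters' processing notes those of the Sir2 arm came from MAS5, with no version, and the tool of the TSA arm was not given in the sources used here. Trimmed means of the deposited arrays are nearly equal within an arm. Of 12488 probe sets 66 controls were left out, 10833 of the rest had 1 gene symbol, 396 several and 1193 none, and 10817 symbols were updated through the RefSeq gene table. Values below 0 were set to 0, the 40th (TSA arm) or 20th (Sir2 arm) percentile of the arm's values was added, and log2 was taken, the 20th percentile of the TSA arm being below 0. Probe sets with a mean of at least 144.9 or 31.1 were tested, 7453 per arm. The groups of an arm shared 1 linear model (limma 3.58.1, R 4.3.3, lmFit and eBayes, residual degrees of freedom 10 and 8, prior ones 2.45 and 3.93), with Benjamini-Hochberg adjustment within a comparison. The error printed after ± is the SE of a log2 change or the SD of an intensity.

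A gene was counted by its tested probe set of highest mean in the arm. From each list up to 3 genes of smallest p in a comparison were named, and for Ddit3 and Hspa5 the 4 genes of highest correlation. Motifs were searched in RefSeq promoters with Python 3.11.15, and figures drawn with matplotlib 3.10.9. Alternatives were a smaller and a larger pseudocount (0.5 and 2 times), other filters, normalizations and variance estimates, a covariate for titles with an extra letter b, a replicate block, fits of only the groups compared, and each array left out.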

Additional observations from a re-analysis of the deposited data

Results flagged for a closer look

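The effect of TSA differed between the 5 times for 9 of the 12 member probe sets tested, by limma's F test of the difference itself. The adjusted p was 3.51e-04 for Slc3a2, 6.34e-04 for Trib3, 6.90e-04 for Ddit3, 0.00184 for Atf3 by its f-type probe set, 0.00283 for Herpud1, 0.00453 for the brighter probe set of Asns and 0.0262 for its second probe set, 0.0202 for Shmt2 and 0.0288 for Hspa5. Slc3a2 went from 0.40 ± 0.11 in growth medium to -0.99 ± 0.11 at 24 h, and Herpud1 from -0.88 ± 0.14 at 24 h to 0.46 ± 0.14 at 48 h, both on the log2 scale. For Hspa5 the call was lost without any one of 6 arrays (adjusted p from 0.0512 to 0.0960: control 4 h replicate 1, control 24 h replicate 3, control 48 h replicate 2, both TSA arrays of 24 h and TSA 48 h replicate 2). That of Shmt2 was lost without any one of the 4 arrays of 4 h (0.0611 to 0.0711) and with the larger pseudocount (0.0539), and that of the second Asns probe set without control 4 h replicate 2, control 24 h replicate 3, TSA 0 h replicate 1, TSA 4 h replicate 1 or TSA 24 h replicate 2 (0.0503 to 0.0906).

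The effect of Sir2 on Asns differed between 12 and 36 h (brighter probe set, adjusted p = 0.0342), from 0.53 ± 0.11 at 12 h to -0.20 ± 0.11 at 36 h. For the second probe set the same difference was -1.04 ± 0.28 (adjusted p = 0.0928).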

How the results depend on the processing

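Of 3037 member tests repeated under another setting, 2804 kept their direction and side of the threshold, 143 were no longer past it, 14 passed it newly, 76 uncalled values changed sign and 0 called ones did; 45 of 80 called member tests kept their call under every setting. The counts of higher members at 24 and 48 h in control cells stayed between 6 and 7, and those between 12 and 36 h in vector and Sir2 cells at 7. Fitted on only the groups compared, with 4 or 6 arrays, the counts were lower: with TSA 1 of 6 lower and 0 of 1 higher members at 24 h, 0 of 3 and 0 of 1 at 48 h, 1 of 3 lower at 4 h, 0 higher and 0 lower in growth medium and 0 lower at 12 h; with Sir2 0 of 3 higher at 12 h and 0 higher at 36 h; in TSA cells 4 of 6 higher at 48 h against 0 h; and in control cells 0 higher at 4 h and 0 lower at 12 and 24 h. The single lower member at 24 h in control cells, Hspa5, was 0 with the smaller pseudocount, median centring, no filter or the covariate for the letter b; the single one lower with TSA at 12 h, Asns, was 0 with the smaller pseudocount, median centring, quantile normalization or that covariate, and 2 with trend and robust variance. The member higher at 4 h in control cells was 0 with the smaller pseudocount or median centring. With TSA in growth medium the higher members were 0 after quantile normalization and 2 with Atf3 by its other tested probe set, chosen after seeing the data. With Sir2 at 36 h the higher members were 2 with a 60th percentile filter, 0 with no filter and 3 with trend and robust variance, and the lower ones 0 with median centring. The difference of Sir2 effects had 0 lower members with median centring, no filter or the covariate.

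Deviations of same-numbered arrays correlated at -0.0997 to 0.228 (TSA arm) and at -0.314 to 0.116 (Sir2 arm). In the TSA arm, with 2 arrays a group, both replicates of a time give the same value. It was 0.172 at 12 h, 0.228 at 24 h and below 0 at the other times. Whether replicate numbers mark pairs cannot be told from so few values, and the main model used no pairing. With the replicate block the lower members in control cells were 0 at 12 h and 0 at 24 h, the higher ones with Sir2 at 36 h 0, and those lower in the difference of Sir2 effects 0; the lower members with TSA stayed at 6 at 24 h and were 4 at 48 h.

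Without one array, member counts ranged from 5 to 6 (lower) and 0 to 1 (higher) with TSA at 24 h, 2 to 3 and 0 to 1 at 48 h, 1 to 2 lower at 4 h, 0 to 0 lower at 12 h, and 0 to 1 each way in growth medium. In control cells they ranged from 0 to 0 higher at 4 h, 0 to 1 lower at 12 h and 0 to 0 lower at 24 h. With Sir2 they ranged from 0 to 3 higher at 12 h, 0 to 0 higher and 0 to 1 lower at 36 h, and 0 to 1 for the difference. With 2 arrays a group, changes near the size of the spread between replicates can be missed, and in the TSA arm genes near background have no order.

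Over all probe sets, the calls with TSA were 443 at 24 h (9 to 517 under other settings), 1464 at 48 h (20 to 1628), 846 at 4 h (81 to 944), 304 at 12 h (0 to 345) and, in growth medium, 1336 (798 to 913 without one array). In control cells they were 153 at 4 h (0 to 193), 390 at 12 h (2 to 512), 959 at 24 h (256 to 1054) and 2630 at 48 h (1534 to 2767), and in TSA cells at 48 h 1965 (1044 to 2024). With Sir2 they were 414 at 12 h (208 to 527), 690 at 36 h (422 to 498 without one array) and 131 for the difference (45 to 113 without one array, 46 to 207 otherwise). The motif TGATGNAA was in 4 members on either strand and in 1 on the strand of the gene.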

Other observations

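Some pathway genes other than the members passed the test early in the untreated course. Over all probe sets, the 153 calls at 4 h fell to between 24 and 45 without 1 array. The 390 calls at 12 h fell to between 89 and 294. The calls of single list genes were not repeated in that way. At 4 h against 0 h in control cells, chaperones and oxidoreductases of the endoplasmic reticulum had 3 of 17 genes higher and 0 lower, where 2.05% of all probe sets were called. They were Creld2 (0.83 ± 0.16, adjusted p = 0.0182), Pdia4 (0.77 ± 0.16, 0.0271) and Dnajc3, an inhibitor of eIF2alpha kinases (0.81 ± 0.17, 0.0321), by limma. Stress transcription factors had 0 of 9 higher and 3 lower, Nupr1 (126 ± 62.6 against 956 ± 26.5, adjusted p = 1.18e-04), Ddit4 (-1.27 ± 0.22, 0.0111) and Cebpb (-0.60 ± 0.14, 0.0462). At 12 h 4 of the 17 chaperones were higher and 0 lower (against 5.23% of probe sets), with Pdia4 at 0.87 ± 0.16 (adjusted p = 0.00889) and Manf at 0.70 ± 0.14 (0.0128). Nupr1 was thus lower at 4 h and, as given above, higher at 24 h than in growth medium.

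In growth medium TSA changed 16 of the 70 pathway genes tested, 8 higher and 8 lower, near the 17.9% of all probe sets called. Slc38a2, a carrier of neutral amino acids that the amino acid response is known to induce, read 814 ± 195 with TSA against 2425 ± 563 (-1.43 ± 0.23, adjusted p = 7.77e-04), and at 48 h it was higher with TSA (0.86 ± 0.23, adjusted p = 0.0186). Sec61b, a subunit of the translocation channel, was higher with TSA in growth medium (0.86 ± 0.17, adjusted p = 0.00297) and lower at 48 h (-1.38 ± 0.17, adjusted p = 1.19e-04). At 48 h the list of degradation and translocation genes had 1 of 13 higher with TSA, Selenos (1.07 ± 0.16, adjusted p = 6.42e-04), and 5 lower, with Sec62 at -1.28 ± 0.13 (adjusted p = 3.19e-05). Over all probe sets 10.5% were higher and 9.10% lower in that comparison, so that the count of higher genes is near the background.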
